A study of Mus musculus with 12 samples.

Results

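The genes described are 43 genes of the cell division cycle in MLL-AF9 leukemia cells, a mouse acute myeloid leukemia (AML) driven by the MLL-AF9 fusion, and the question was whether the immune status of the host goes with a difference in their RNA levels. They are a fixed list of S-phase and mitosis genes, set by name when earlier results of these data were known. All 43 were found among the 55401 genes of the expression file and among the 15026 genes that were abundant enough to test. The list was divided by role into 13 replication genes, 6 genes of G1/S control and checkpoint, and 24 mitosis genes.

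RNA-seq was carried out on GFP+ leukemia cells sorted from the bone marrow of 12 female mice, 4 of each host, and the labels call the libraries biological replicates. The WT hosts were immunologically normal C57BL/6 mice, the Rag2-/- hosts were C57BL/6J mice without mature T and B cells, and the NSG hosts, which are of the NOD and not the C57BL/6 strain, lacked T, B and NK cells, so that for NSG the strain and the immune status cannot be told apart. The mice were 8 to 12 weeks old. All hosts received the same MLL-AF9 cells, which had been made by transducing bone marrow progenitors with MLL-AF9 and GFP and had then been passaged through mice more than 10 times, so the 12 leukemias share 1 origin and differ by host. The cells came from moribund mice according to the study, and the day of collection for each mouse is not given in the labels. The study reports an earlier AML in NSG mice and a slower one in Rag2-/- mice than in WT mice. Host and time in the host therefore cannot be told apart.

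A cell that divides first licenses its replication origins with CDC6, CDT1 and the MCM2 to MCM7 helicase, then copies its DNA in S phase with nucleotides supplied by ribonucleotide reductase and thymidylate synthase, and finally separates the copies in mitosis. Transcription of the S-phase genes is switched on by E2F factors once cyclin E and its kinase have inactivated the retinoblastoma protein. Many mitosis genes are kept off until G2 and M phase through a short promoter motif, the cell cycle homology region (CHR), which is read by the DREAM complex and by the MYBL2 and FOXM1 activators and is often accompanied by CCAAT boxes. The levels of these RNAs in a bulk sample therefore follow both the share of cells in each phase and the amount of RNA per cell, and fewer cells in a phase cannot be told apart from less RNA per cell in the values below.

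The promoters of these genes differed by role in the motifs they hold. RefSeq promoter sequences (GRCm38.p6, 250 bases before to 50 bases after the start) were found for 34 of the 43 genes, and the letters were searched on both strands. The CHR letters TTTGAA were present in 13 of 18 mitosis genes (72.2%), in 1 of 11 replication genes (9.09%), and in 17.9% of all 32851 promoters. CCAAT was present in 16 of 18 mitosis genes (88.9%), in 8 of 11 replication genes (72.7%) and in 37.4% of all promoters. An E2F motif, TTTCCCGC, TTTGGCGC or TTTCGCGC, was present in 6 of 11 replication genes (54.5%), namely Cdc6, Cdt1, Mcm3, Mcm5, Mcm6 and Mcm7, in 1 of 18 mitosis genes (5.56%), namely Cdk1, and in 1.84% of all promoters. Of the 5 G1/S genes with a promoter sequence, 2 held CHR letters, 2 held CCAAT and 1 held an E2F motif. Counted per gene over all its listed promoters, the shares among 27025 genes were 20.2% for CHR, 41.1% for CCAAT and 2.12% for an E2F motif. In the mitosis genes the median first base of a CHR match lay 18 bases before the start, and in the replication genes the median E2F match lay 106 bases before it. A match is a description of the letters and is not evidence that a factor binds there.

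**Figure D1:**
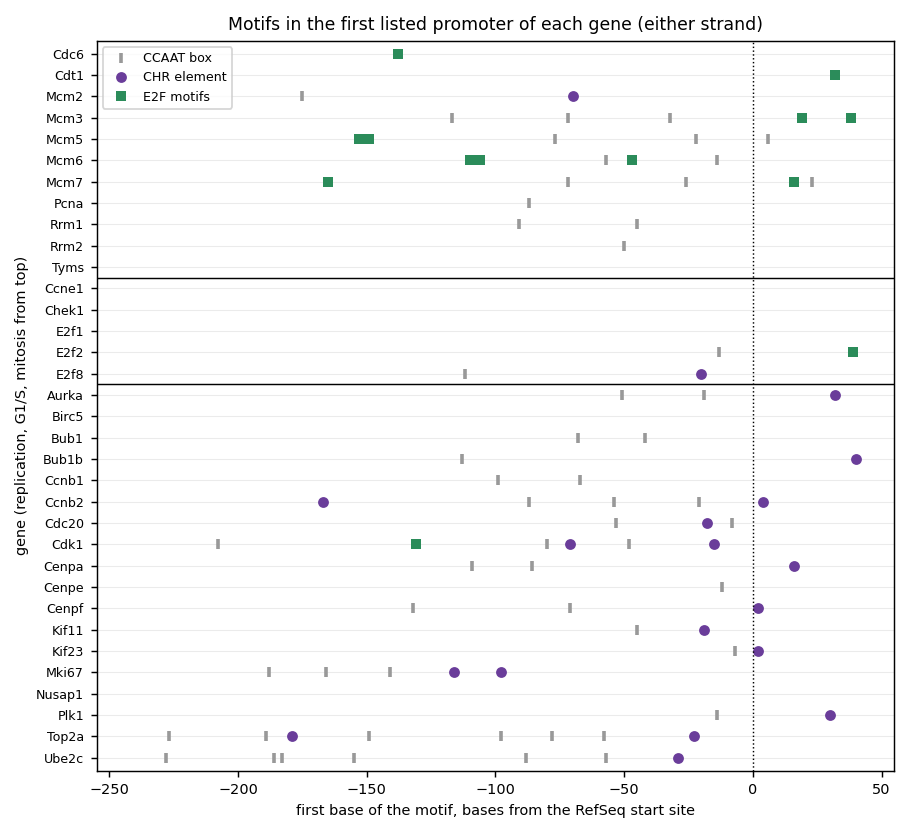
Position of each motif match in the promoter of the 34 genes with a RefSeq sequence, 1 gene per row, with replication genes at the top, G1/S genes in the middle and mitosis genes at the bottom. The horizontal axis gives the first base of the match in bases from the start site, and only the first listed promoter of a gene is drawn. Squares (E2F) lie mostly in the replication rows and circles (CHR) mostly in the mitosis rows, where they gather near the start.

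The 250 bases before the start of 4 mitosis genes are shown first because they carry CHR and CCAAT motifs together. All motif letters are in capitals, and a motif on the opposite strand reads as TTCAAA or ATTGG. The stretch of Ube2c, which encodes the ubiquitin-conjugating enzyme of the anaphase-promoting complex, is chr2:164769679-164769928 on the plus strand and holds 1 CHR and 6 CCAAT matches. Those of Ccnb2 (cyclin B2, chr9:70421555-70421804), Mki67 (the Ki-67 antigen, chr7:135716380-135716629) and Cdk1 (the mitotic kinase, chr10:69352913-69353162) are on the minus strand. Mki67 carries 2 CHR matches close together, and Cdk1 carries 2 CHR matches and 1 E2F motif.
Ube2c: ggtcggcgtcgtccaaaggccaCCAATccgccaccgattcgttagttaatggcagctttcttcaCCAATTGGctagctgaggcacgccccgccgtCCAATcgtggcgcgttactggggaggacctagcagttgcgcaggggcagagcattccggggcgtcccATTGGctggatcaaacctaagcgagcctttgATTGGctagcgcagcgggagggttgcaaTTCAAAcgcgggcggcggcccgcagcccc
Ccnb2: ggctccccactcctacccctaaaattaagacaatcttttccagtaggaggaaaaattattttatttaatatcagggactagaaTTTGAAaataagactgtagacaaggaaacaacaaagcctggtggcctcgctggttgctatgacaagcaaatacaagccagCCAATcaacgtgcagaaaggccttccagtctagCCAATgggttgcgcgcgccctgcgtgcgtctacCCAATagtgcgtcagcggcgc
Mki67: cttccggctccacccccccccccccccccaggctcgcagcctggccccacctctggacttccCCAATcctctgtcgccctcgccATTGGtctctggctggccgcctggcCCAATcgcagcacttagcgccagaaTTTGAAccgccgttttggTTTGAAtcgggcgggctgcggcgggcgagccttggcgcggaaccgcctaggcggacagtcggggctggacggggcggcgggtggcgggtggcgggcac
Cdk1: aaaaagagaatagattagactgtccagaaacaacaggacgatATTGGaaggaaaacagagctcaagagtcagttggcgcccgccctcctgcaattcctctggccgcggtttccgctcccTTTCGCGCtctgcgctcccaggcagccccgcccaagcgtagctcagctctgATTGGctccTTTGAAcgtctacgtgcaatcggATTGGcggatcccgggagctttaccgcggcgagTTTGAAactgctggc

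The corresponding stretches of 2 helicase genes are shown because they hold E2F motifs and no CHR letters. They are Mcm5 (chr8:75109259-75109508, plus strand, 2 E2F matches) and Mcm6 (chr1:128359706-128359955, minus strand, 3 E2F matches). In both genes TTTCGCGC and TTTGGCGC overlap by 4 bases on opposite strands, so a run of 12 capitals is 2 matches.
Mcm5: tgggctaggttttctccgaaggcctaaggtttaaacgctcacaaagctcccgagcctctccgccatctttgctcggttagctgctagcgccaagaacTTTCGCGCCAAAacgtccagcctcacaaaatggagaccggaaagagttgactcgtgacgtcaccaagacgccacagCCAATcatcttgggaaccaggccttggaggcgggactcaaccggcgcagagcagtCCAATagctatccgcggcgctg
Mcm6: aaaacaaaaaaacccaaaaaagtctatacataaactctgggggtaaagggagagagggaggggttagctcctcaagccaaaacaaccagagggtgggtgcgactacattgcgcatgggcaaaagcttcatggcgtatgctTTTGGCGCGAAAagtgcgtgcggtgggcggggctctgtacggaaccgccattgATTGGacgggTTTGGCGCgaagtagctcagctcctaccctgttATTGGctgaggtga

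The deposited values are TPM, transcript abundances scaled by gene length and to the same total in every library, which carry no read depth, so the counting error of a single value is unknown and only the spread over the 4 libraries of a host is available. The 9 leukemia and myeloid markers (Ptprc, Itgam, Kit, Hoxa9, Meis1, Cd34, Mpo, Elane, Csf1r) were present in all 12 libraries. Their mean log2(TPM + 1) was 7.60 in WT, 7.36 in Rag2-/- and 7.52 in NSG. Mpo, the myeloperoxidase of immature myeloid cells, was at 508 to 593 TPM in WT, 70.1 to 287 TPM in Rag2-/- and 219 to 710 TPM in NSG. The means of Kit, Cd34 and Elane were also lower in Rag2-/- than in WT. Of the 9 markers, 2 were higher in all Rag2-/- libraries than in all WT libraries, beside 10.2% of all genes. They were Itgam (98.9 to 112 and 78.7 to 87.1 TPM) and Meis1 (55.9 to 63.3 and 54.2 to 55.8 TPM). The part of Mpo in the lower mean was not tested. Of 11 T and NK cell markers, 8 stayed under 1 TPM in every library. Ncr1 was at 0.108 to 0.531 TPM in Rag2-/- and 0 in WT and NSG. Gzma was at 0.624 to 2.39 TPM in Rag2-/- and 0 in WT, while Nkg7 was at 1.79 to 5.19 and 5.2 to 6.71 TPM. The B and plasma cell marker Igkc was at 0.745 to 18 TPM in WT, 0 to 0.295 TPM in Rag2-/- and 0 to 0.676 TPM in NSG. Jchain reached 1.18, 0.0661 and 0.143 TPM in the same order of hosts. Cd79a (means of 1.89, 1.83 and 1.85 TPM) and Ighm (183, 164 and 177 TPM) overlapped between the hosts. Of 8 erythroid markers, 1, Car1, was higher in all Rag2-/- libraries than in all WT libraries, beside 10.2% of all genes. Car1 was at 0.533 to 1.93 TPM in Rag2-/- and 0 in WT and NSG. Hba-a1 overlapped, at 1.61 to 4.03 TPM in Rag2-/-, 0.63 to 2.2 TPM in WT and 0.254 to 6.42 TPM in NSG. The Rag2-/- libraries also stood apart in neutrophil genes and in some macrophage genes. The 15 neutrophil markers summed to 2505 to 11165 TPM in Rag2-/-, compared with 1519 to 3336 TPM in WT and 1901 to 3271 TPM in NSG. Of the 15, 12 were higher in all Rag2-/- libraries than in all WT libraries, beside 10.2% of all genes. The mean log2(TPM + 1) of these markers was 6.65 in Rag2-/- replicates 1, 2 and 3 and 5.12 in replicate 4, against 3.54 to 4.05 in the other hosts. The 8 macrophage markers summed to 136 to 149 TPM in Rag2-/-, 114 to 133 TPM in WT and 87.9 to 141 TPM in NSG. Of the 8, 3 were higher in all Rag2-/- libraries than in all WT libraries, beside 10.2% of all genes. Against all NSG libraries 6 were higher, beside 4.34% of all genes. The 3 above WT were the complement genes C1qa (4.53 to 10.3 TPM in Rag2-/- and 0 to 3.66 TPM in WT), C1qb (5.43 to 12.2 and 0.991 to 4.47 TPM) and C1qc (2.76 to 5.92 and 0.446 to 2.12 TPM). The other macrophage markers overlapped between Rag2-/- and WT. Adgre1, the most abundant of them, had means of 55 TPM in Rag2-/- and 57.4 TPM in WT. The part of these differences in the results on cell cycle genes was not tested.

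Cell cycle RNAs were abundant in the leukemia cells of every host. The mean over 12 libraries ran from 20.0 TPM for Cdc25c to 528 TPM for Pcna, with a median of 137 TPM over the 43 genes compared with 19.4 TPM over all genes tested. The genes lay between the 50.6th and the 98.4th percentile of all genes tested, and their median was the 90.9th percentile. Together they made up 6454 to 6990 TPM in the WT libraries, 6067 to 7273 TPM in the Rag2-/- libraries and 6703 to 6967 TPM in the NSG libraries, so the lowest and the highest sum both belonged to Rag2-/- mice. TPM are scaled by gene length, but the lengths used are not stated, and levels are compared between genes on that scale only.

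No cell cycle gene passed the test in any of the 3 comparisons. With limma on log2(TPM + 1) over all 12 libraries and a call at an adjusted p below 0.05 and a log2 fold change beyond 0.5, 0 of 43 genes were called in Rag2-/- versus WT, where 1.47% of all 15026 genes were called. The count was also 0 of 43 in NSG versus WT, where the share of all genes was 0%, and 0 of 43 in Rag2-/- versus NSG, against 0.213% of all genes. Without the limit on the fold change still 0 of 43 genes passed the adjusted p in Rag2-/- versus WT, against 2.8% of all genes. With so few of all genes called, a count of 0 among 43 is close to the background and is not a result about these genes.

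The intervals of the differences say more than the calls. The whole 95% confidence interval lay within 0.5 of no difference on the log2 scale for 39 of 43 genes in Rag2-/- versus WT (56.4% of all genes), for 41 of 43 in NSG versus WT (61.9%) and for 42 of 43 in Rag2-/- versus NSG (61.5%). These shares of all genes are not matched for level. The 43 genes had a median of 137 TPM and a median SD within hosts of 0.124. Over all genes tested these were 19.4 TPM and 0.172. The part of level in the gap was not tested. The 4 genes whose intervals reached beyond the limit in Rag2-/- versus WT were E2f2, Mki67, Cenpf and Nusap1. For NSG versus WT they were E2f2 and Nusap1, and in Rag2-/- versus NSG it was E2f2. The 3 comparisons share libraries and one estimate of the spread, so they are not independent of each other.

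**Figure D2:**
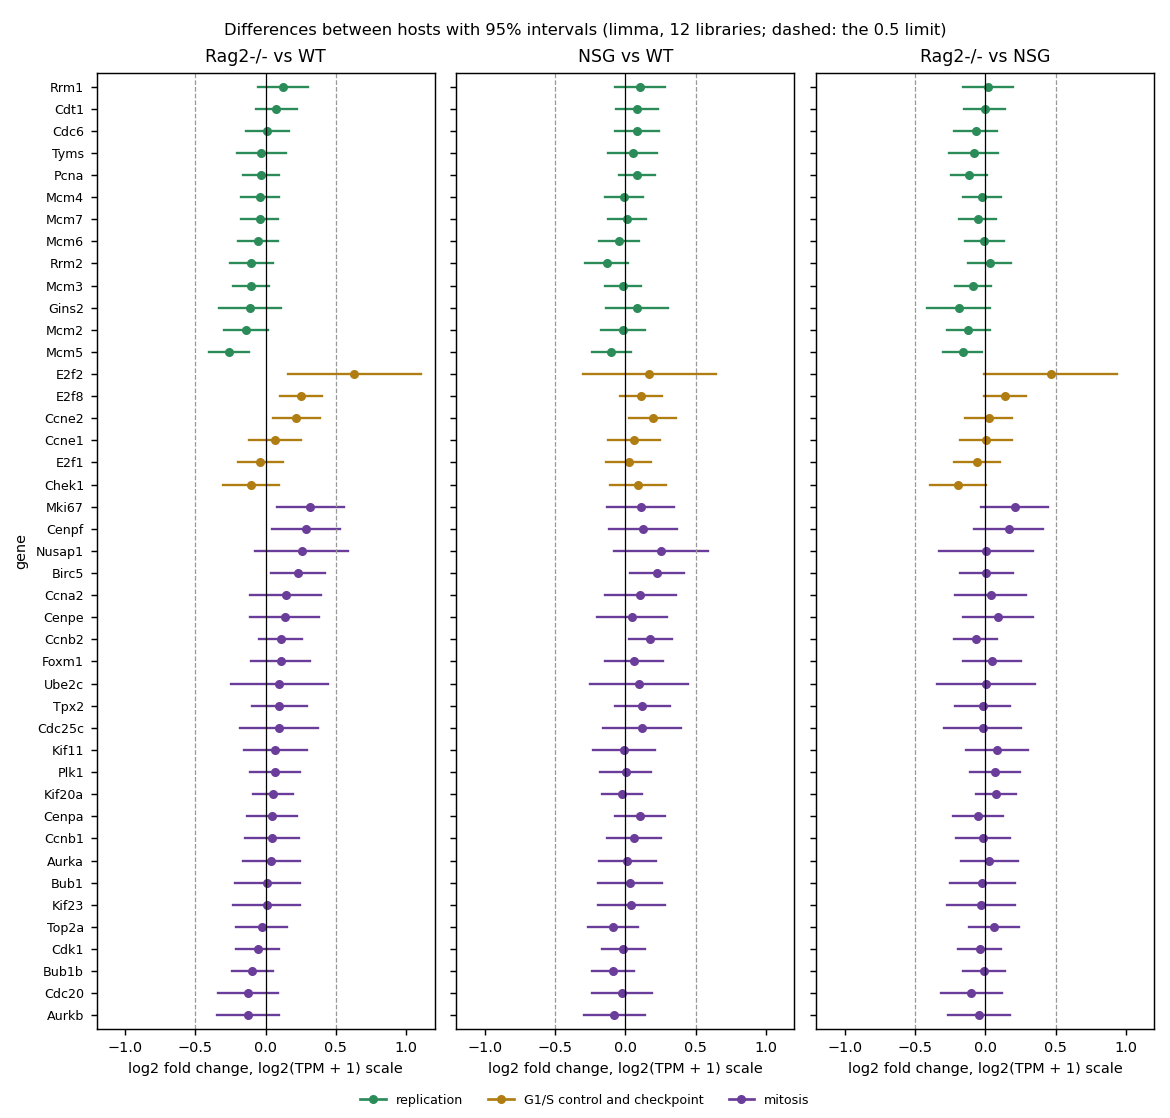
Log2 fold change on the log2(TPM + 1) scale (horizontal axis) of each of the 43 genes, 1 per row, with its 95% interval from limma over 12 libraries, for Rag2-/- versus WT, NSG versus WT and Rag2-/- versus NSG. Green marks replication, ochre G1/S control and checkpoint, and purple mitosis, and dashed lines mark 0.5 in either direction. Nearly all intervals stay between the dashed lines, and that of E2f2 in Rag2-/- versus WT (0.158 to 1.10) reaches furthest beyond them.

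At an unadjusted p below 0.05, 6 genes were higher and 1 was lower in Rag2-/- than in WT, which is 6 of 43 beside 12.3% of all genes higher and 1 of 43 beside 8.66% lower. Between NSG and WT 3 genes were higher and 0 lower in NSG, with 4.93% and 4.23% of all genes. Between Rag2-/- and NSG 0 were higher and 1 was lower in Rag2-/-, with 7.72% and 4.84% of all genes. All 4 libraries of Rag2-/- lay above all 4 of WT for 5 genes (10.2% of all genes) and below for 1 gene (6.72%). All 4 libraries of NSG lay above all 4 of WT for 2 genes (2.21%) and below for 0 (2.38%), and Rag2-/- and NSG overlapped in every cell cycle gene (4.34% and 2.25% of all genes did not overlap). These shares are near the background.

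The replication genes, the origin licensing factors, helicase subunits and nucleotide enzymes, were close to equal in the 3 hosts. Of the 13 genes, 3 were higher and 10 lower in Rag2-/- than in WT, with a median log2 fold change of -0.04 beside 0.02 over all genes tested. The median was 0.01 in NSG versus WT, with 7 of 13 higher, and -0.07 in Rag2-/- versus NSG, with 2 of 13 higher. Without Rag2-/- replicate 2, 7 of 13 were higher in Rag2-/- than in WT and the median was 0.000726, so the direction in that comparison rests on this library.

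Mcm5, a subunit of the MCM2 to MCM7 helicase (chr8:75109569-75128439, GRCm38), differed most among them. Its level was 371, 395, 387 and 366 TPM in WT, 345, 299, 303 and 323 TPM in Rag2-/-, and 334, 328, 379 and 380 TPM in NSG. Every Rag2-/- library was below every WT library, and the NSG libraries fell on both sides of the gap. The log2 fold change was -0.26 (SE 0.0644, 95% interval -0.401 to -0.121) in Rag2-/- versus WT, with an adjusted p of 0.0507, and -0.16 in Rag2-/- versus NSG, with an adjusted p of 0.314. Its adjusted p passed below 0.05 under some of the alternatives (lowest 0.0266), while its fold change stayed inside the limit of 0.5 in all of them.

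Mcm2, another helicase subunit, was at 171, 186, 189 and 185 TPM in WT, 174, 143, 162 and 186 TPM in Rag2-/- and 188, 174, 182 and 176 TPM in NSG. The hosts overlapped, and the low mean of Rag2-/- (166 ± 18.3 TPM, SD, n = 4) came with the low value of its replicate 2. The other helicase genes ranged over the 12 libraries from 354 to 435 TPM (Mcm3), 256 to 308 TPM (Mcm4), 333 to 395 TPM (Mcm6) and 249 to 306 TPM (Mcm7). Their log2 fold changes in Rag2-/- versus WT lay between -0.11 and -0.04, and all were smaller than the range inside the Rag2-/- group.

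Pcna, which encodes the sliding clamp of the DNA polymerases and is located at chr2:132249162-132253314, was the most abundant of the 43 genes. Its level was 511, 515, 536 and 522 TPM in WT, 538, 469, 524 and 507 TPM in Rag2-/-, and 530, 513, 605 and 564 TPM in NSG. The highest values were in NSG replicates 3 and 4 and the hosts overlapped, with log2 fold changes of -0.03 in Rag2-/- versus WT and 0.08 in NSG versus WT. Its interval in Rag2-/- versus WT, -0.162 to 0.0949, was among the tightest of the list.

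Rrm2, the regulated subunit of ribonucleotide reductase, was at 360, 354, 386 and 320 TPM in WT, 355, 292, 346 and 331 TPM in Rag2-/-, and 314, 319, 317 and 344 TPM in NSG. It had the largest difference of the replication genes in NSG versus WT, -0.13 on the log2 scale with an adjusted p of 0.591, and its hosts overlapped. Rrm1, the large subunit of the same enzyme, went the other way in NSG versus WT, with a log2 fold change of 0.11. Its values were 147, 142, 160 and 154 TPM in WT, 165, 144, 178 and 174 TPM in Rag2-/-, and 182, 169, 155 and 144 TPM in NSG, and they overlapped too.

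The licensing factor Cdc6 was at 56.9, 61.3, 67.4 and 59.4 TPM in WT, 65.4, 61.3, 56.9 and 63.6 TPM in Rag2-/-, and 68.6, 68.3, 58.6 and 64.1 TPM in NSG. Its 3 host means, 61.3, 61.8 and 64.9 TPM, lay within 1 SD of each other. Its partner Cdt1 ranged from 149 to 183 TPM and thymidylate synthase (Tyms) from 50.9 to 67.2 TPM over the 12 libraries, with overlap between the hosts. Gins2, a subunit of the GINS complex that activates the helicase, was at 25.8, 32.3, 26.2 and 25 TPM in WT, 25.6, 22.4, 24.3 and 28.6 TPM in Rag2-/-, and 27.0, 26.3, 29.6 and 32.8 TPM in NSG. It had the largest difference of the replication genes in Rag2-/- versus NSG (-0.19, adjusted p 0.479), but 67.3% of its exon bases overlap the opposite-strand gene Gse1, and whether the counting used strand is not stated.

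The G1/S genes included E2f2, which had the largest fold change of the 43 genes in Rag2-/- versus WT. Of the 6 genes, 4 were higher in Rag2-/- than in WT, with a median log2 fold change of 0.14, and 3 of these, E2f2, E2f8 and Ccne2, did not overlap between the hosts, beside 10.2% of all genes that were higher without overlap. All 6 were higher in NSG than in WT, with a median of 0.10, and each of them overlapped. Without NSG replicate 3, 4 of 6 were higher in NSG than in WT.

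E2f2, an activating E2F factor (chr4:136172394-136196057), had the largest difference of the 43 genes and also the widest spread. Its level was 67.5, 56.3, 62.0 and 61.5 TPM in WT, 96.6, 102, 120 and 72.2 TPM in Rag2-/-, and 55, 50.5, 114 and 73.3 TPM in NSG. All Rag2-/- libraries were above all WT libraries, but NSG overlapped with both, with replicate 3 near the top of Rag2-/- and replicates 1 and 2 below every WT library. The log2 fold change in Rag2-/- versus WT was 0.63 (SE 0.218, 95% interval 0.158 to 1.10), with an adjusted p of 0.128. In the fit on the 8 Rag2-/- and WT libraries alone the adjusted p was 0.0296 and E2f2 was called, as it was without NSG replicate 3 (0.0364). Against NSG the log2 fold change of Rag2-/- was 0.46 (95% interval -0.0103 to 0.936, adjusted p 0.411), and in NSG versus WT it was 0.17, with -0.07 without NSG replicate 3 and 0.32 without NSG replicate 2. Inside the Rag2-/- group E2f2 was lowest in replicate 4, which was also the replicate with the lowest neutrophil markers, and the part of neutrophil RNA in the value was not tested. NSG replicate 3, whose E2f2 level was near the top of Rag2-/-, had a neutrophil marker mean of 3.76, the lowest of its host. Its single markers went both ways. S100a9, Ltf, Camp, Retnlg, Mmp8 and Ly6g were the lowest of the NSG libraries there. Lcn2 (227 TPM), Cd177 (132 TPM) and Il1r2 (15.9 TPM) were the highest. The part of neutrophil RNA in this library was not tested either.

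E2f8, an atypical E2F factor that represses E2F targets late in S phase, was at 117, 110, 123 and 129 TPM in WT, 137, 132, 154 and 148 TPM in Rag2-/-, and 136, 134, 131 and 117 TPM in NSG. Rag2-/- lay above WT without overlap, by 0.25 on the log2 scale (95% interval 0.0999 to 0.401, adjusted p 0.0689). Ccne2, cyclin E2, was at 46.7, 44.0, 48.6 and 50.3 TPM in WT, 56.1, 53.9, 57 and 54.0 TPM in Rag2-/-, and 63.9, 50.5, 54.5 and 49.5 TPM in NSG. The Rag2-/- libraries were higher than the WT libraries by 0.22 (95% interval 0.0510 to 0.384, adjusted p 0.134), and the mean of NSG was higher than that of WT by 0.19 (adjusted p 0.505) with overlap. Opposite-strand genes overlap 11.2% of the exon bases of E2f8 (Gm2788) and 17.4% of those of Ccne2 (Ints8).

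Ccne1, cyclin E1, was at 49.8, 51.9, 55.9 and 44.9 TPM in WT, 57.5, 49.0, 52.9 and 52.5 TPM in Rag2-/-, and 46.4, 53.2, 59.3 and 52.7 TPM in NSG, so the separation seen for cyclin E2 between Rag2-/- and WT was not present in these values. E2f1, the best known activator of S-phase genes, was at 84.9, 95.4, 102 and 99.1 TPM in WT, 100, 94.9, 85.6 and 90.5 TPM in Rag2-/-, and 88.2, 99.0, 106 and 94.6 TPM in NSG. Its 95% interval in Rag2-/- versus WT was -0.198 to 0.123. Chek1, the checkpoint kinase that restrains mitosis when replication stalls, was at 24.9, 28.1, 28.0 and 28.3 TPM in WT, 25.8, 22.9, 26.0 and 26.7 TPM in Rag2-/-, and 31.2, 30.2, 23.9 and 31.8 TPM in NSG. Its difference in Rag2-/- versus NSG was -0.19 (95% interval -0.395 to 0.00606, adjusted p 0.416), and NSG replicate 3 lay among the Rag2-/- values.

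**Figure D3:**
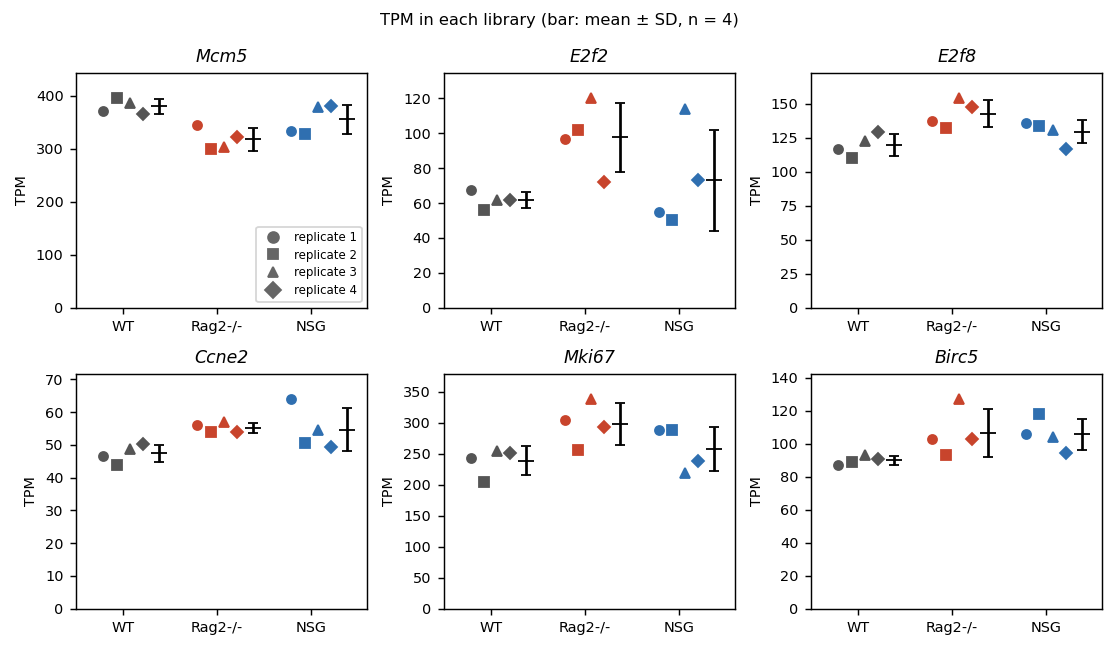
TPM (vertical axis, from 0) of Mcm5, E2f2, E2f8, Ccne2, Mki67 and Birc5 in each of the 12 libraries by host, with the mean ± SD of 4 libraries beside the points and 1 symbol per replicate number. These are the 6 genes without overlap between Rag2-/- and WT, Mcm5 lower and the others higher in Rag2-/-, and the NSG points overlap the Rag2-/- points in every panel.

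Among the mitosis genes 19 of 24 were higher in Rag2-/- than in WT, with a median log2 fold change of 0.07 beside 0.02 for all genes, of which 54.5% were higher. The median was 0.05 in NSG versus WT, with 17 of 24 higher, and 0.004 in Rag2-/- versus NSG, with 13 of 24 higher. These directions rest on single libraries. Without Rag2-/- replicate 3 only 10 of 24 were higher in Rag2-/- than in WT (median -0.02), and without WT replicate 2 only 12 of 24 were higher in NSG than in WT (median -0.000598). The mitosis median of Rag2-/- versus NSG turned negative under quantile normalization (-0.01) and median-ratio scaling (-0.01), each with 10 of 24 higher. Single libraries moved it further, to 5 of 24 higher (median -0.08) without Rag2-/- replicate 3 and 20 of 24 higher (median 0.07) without Rag2-/- replicate 2.

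Mki67, whose protein coats mitotic chromosomes and is the standard proliferation marker (chr7:135689784-135716361), had the largest difference of the mitosis genes. Its level was 244, 204, 255 and 252 TPM in WT, 305, 256, 338 and 293 TPM in Rag2-/-, and 288, 288, 219 and 238 TPM in NSG. The lowest Rag2-/- library lay just above the highest WT library, and NSG covered the gap. The log2 fold change was 0.32 (SE 0.110, 95% interval 0.0802 to 0.557, adjusted p 0.127) in Rag2-/- versus WT and 0.21 (adjusted p 0.467) in Rag2-/- versus NSG.

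Cenpf, a kinetochore protein of late G2 and mitosis, was at 20.8, 16.9, 20.9 and 18.8 TPM in WT, 22.1, 20.3, 29.2 and 24.4 TPM in Rag2-/-, and 23.7, 21.0, 19.6 and 20.1 TPM in NSG. Its log2 fold change in Rag2-/- versus WT was 0.29 (adjusted p 0.168), with overlap. Birc5, which encodes survivin of the chromosomal passenger complex, was at 87.4, 88.8, 93.5 and 90.7 TPM in WT, 103, 93.5, 127 and 103 TPM in Rag2-/-, and 106, 118, 104 and 94.7 TPM in NSG. It was the only one of the 43 genes whose WT libraries lay below all libraries of both other hosts, and the lowest Rag2-/- and the highest WT library were equal after rounding. The differences were 0.23 in Rag2-/- versus WT (adjusted p 0.158) and 0.22 in NSG versus WT (adjusted p 0.497), and the WT libraries enter both. Ccnb2, cyclin B2, was the other gene with NSG above WT, at 340 to 353 TPM in NSG and 276 to 323 TPM in WT, by 0.18 (adjusted p 0.508).

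Nusap1, a spindle-associated protein, was at 58.0, 51.3, 65.5 and 68.9 TPM in WT, 70.4, 58.7, 90.7 and 73.7 TPM in Rag2-/-, and 84.6, 86.7, 59.0 and 63.2 TPM in NSG. Its NSG libraries formed a high and a low pair, and its log2 fold change of 0.25 in NSG versus WT (95% interval -0.0789 to 0.584, adjusted p 0.639) was the largest of the mitosis genes in that comparison.

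Ccnb1, cyclin B1, was at 147, 123, 137 and 128 TPM in WT, 138, 124, 166 and 128 TPM in Rag2-/-, and 131, 145, 146 and 138 TPM in NSG. Its kinase partner Cdk1 was at 79.5, 78.5, 81.6 and 74.2 TPM in WT, 80.3, 68.7, 83.6 and 70.0 TPM in Rag2-/-, and 73.2, 78.3, 83.1 and 76.0 TPM in NSG. The hosts overlapped for both, with log2 fold changes of 0.05 and -0.06 in Rag2-/- versus WT and 95% intervals of -0.144 to 0.236 and -0.208 to 0.0943.

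Plk1, the polo-like kinase, was at 171, 159, 172 and 160 TPM in WT, 182, 157, 207 and 153 TPM in Rag2-/-, and 169, 166, 158 and 170 TPM in NSG. Top2a, the topoisomerase that disentangles sister chromatids, was at 285, 267, 302 and 309 TPM in WT, 295, 249, 316 and 282 TPM in Rag2-/-, and 303, 281, 245 and 266 TPM in NSG. In both genes the highest and the lowest Rag2-/- library enclosed all 4 WT values, and their intervals in Rag2-/- versus WT were -0.112 to 0.246 and -0.208 to 0.151. Of the genes not given by library, the checkpoint kinases and scaffolds Bub1 (65.9 to 91.6 TPM) and Bub1b (141 to 178 TPM), the Aurora kinases Aurka (145 to 204 TPM) and Aurkb (132 to 189 TPM), and the cyclin Ccna2 (117 to 186 TPM) overlapped between all hosts. The same was found for the anaphase regulators Cdc20 (164 to 227 TPM) and Ube2c (120 to 212 TPM), the phosphatase Cdc25c (16.7 to 25.8 TPM) and the transcription factor Foxm1 (47.9 to 72.0 TPM). It was also found for the centromere proteins Cenpa (59.5 to 75.3 TPM) and Cenpe (47.6 to 71.1 TPM), the kinesins Kif11 (108 to 160 TPM), Kif20a (80.7 to 101 TPM) and Kif23 (43.4 to 58.7 TPM), and the spindle assembly factor Tpx2 (128 to 179 TPM).

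The mitosis genes also differed between mice of the same host. The mean log2(TPM + 1) of the 24 genes was 6.75, 6.57, 6.75 and 6.71 in the WT libraries, 6.76, 6.58, 6.99 and 6.74 in the Rag2-/- libraries, and 6.80, 6.83, 6.66 and 6.70 in the NSG libraries. The highest and nearly the lowest of the 12 values thus came from Rag2-/- replicates 3 and 2, which differed by 0.41, while the Rag2-/- and WT means differed by 0.075. Rag2-/- replicate 3 was the highest of its host for 23 of 24 mitosis genes, compared with 28.2% of all genes tested, and Rag2-/- replicate 2 was the lowest for 22 of 24, compared with 28.1%. WT replicate 2 was the lowest of its host for 20 of 24, compared with 34.6% of all genes. The range inside the Rag2-/- group was larger than the difference between Rag2-/- and WT for 24 of 24 mitosis genes, as it was for 82.2% of all genes tested. The median range of the mitosis genes was 0.41 on the log2 scale in Rag2-/-, 0.25 in WT and 0.26 in NSG, and that of all genes tested was 0.31, 0.30 and 0.42 in the same order.

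The replication genes did not follow the same order of mice. Their mean was 7.50, 7.58, 7.62 and 7.55 in WT, 7.57, 7.38, 7.50 and 7.60 in Rag2-/-, and 7.62, 7.57, 7.55 and 7.57 in NSG. Rag2-/- replicate 2 was the lowest of its host for 12 of 13 replication genes, as it was for mitosis, but the highest was replicate 4 for 7 and replicate 3 for 2 of the 13. In WT the lowest was replicate 1 for 8 of 13. The mitosis mean minus the replication mean was -1.01 to -0.76 in WT, -0.86 to -0.51 in Rag2-/- and -0.89 to -0.74 in NSG, and the value of -0.51 belonged to Rag2-/- replicate 3. The mean of the 6 G1/S genes was 5.89, 5.89, 5.99 and 5.95 in WT, 6.14, 6.05, 6.17 and 6.04 in Rag2-/-, and 6.00, 5.97, 6.16 and 6.02 in NSG. All Rag2-/- values were above all WT values, and the NSG values overlapped with both. E2f2 entered this mean with the largest log2 fold change of the 6 in Rag2-/- versus WT (0.63). E2f1 (-0.04) and Chek1 (-0.10) were lower in Rag2-/- than in WT. The part of E2f2 in the separation was not tested.

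**Figure D4:**
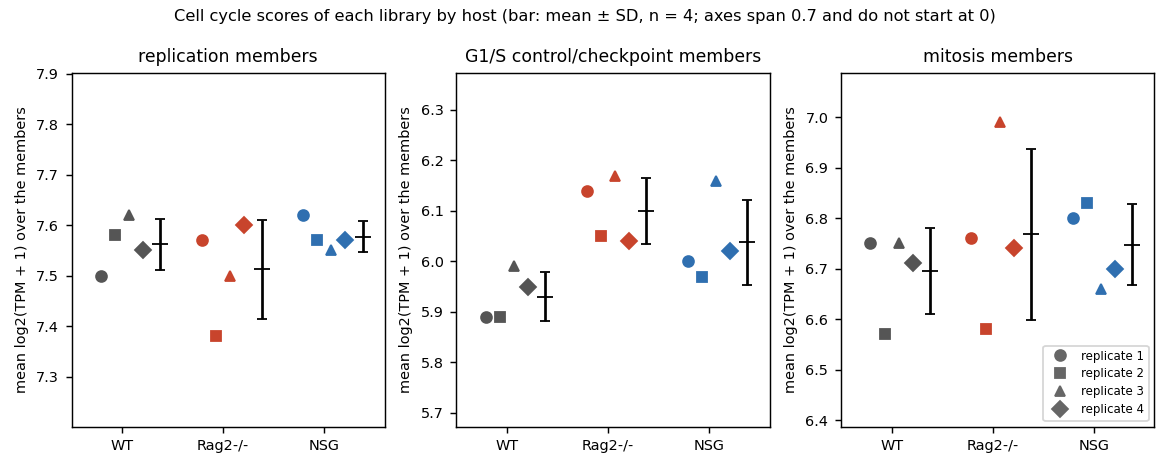
Mean log2(TPM + 1) over the 13 replication, 6 G1/S and 24 mitosis genes (vertical axes, which do not start at 0) in each library by host, with the mean ± SD of 4 libraries and 1 symbol per replicate number. The hosts overlap for replication and mitosis, Rag2-/- replicates 2 and 3 lie far apart in the mitosis panel (6.58 and 6.99), and the Rag2-/- points lie above the WT points in the G1/S panel. The G1/S mean includes E2f2, which had the largest fold change of the 6 genes in Rag2-/- versus WT.

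**Figure D5:**
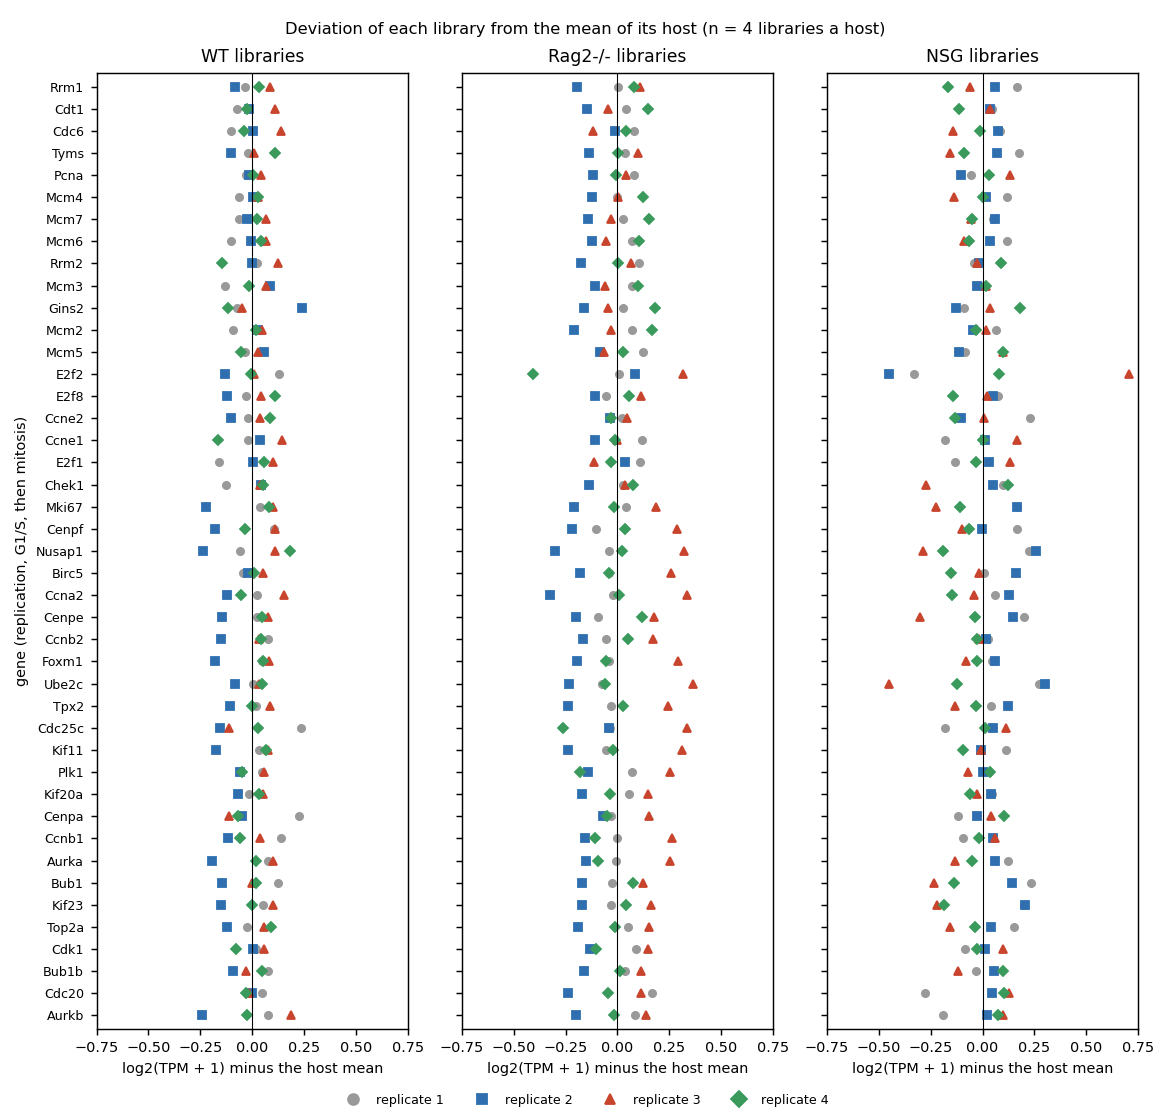
Deviation of each library from the mean of its host on the log2(TPM + 1) scale (horizontal axis) for the 43 genes, 1 per row, in WT, Rag2-/- and NSG. In the Rag2-/- panel the triangles of replicate 3 lie to the right and the squares of replicate 2 to the left through most of the mitosis rows, and in the WT panel the squares of replicate 2 lie to the left.

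The same order of mice appeared in a further list of 50 mitosis genes that holds none of the 24. These genes were measured in the same 12 libraries, so this describes the same mice and is not an independent repeat. There Rag2-/- replicate 3 was the highest of its host for 45 of 50 genes and replicate 2 the lowest for 46 of 50, and WT replicate 2 was the lowest for 39 of 50. Their means were 5.99, 5.81, 6.20 and 6.02 in the Rag2-/- libraries. The neutrophil marker mean was 6.65 in both Rag2-/- replicate 2 and replicate 3, which marked the low and the high end of the mitosis values. Single markers differed between these 2 libraries, such as S100a9 (554 and 494 TPM) and Chil3 (7512 and 8732 TPM). Neither the part of neutrophil RNA nor that of other library differences in the mitosis values was tested.

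None of the other cell cycle lists held a called gene in any comparison. Of 46 other replication genes 17 were higher and 29 lower in Rag2-/- than in WT (median -0.04), with 1 higher and 5 lower at an unadjusted p below 0.05, beside 12.3% and 8.66% of all genes. The largest differences were those of Fen1, the flap endonuclease that processes Okazaki fragments, and Dut, which keeps uracil out of DNA. Fen1 was at 11.2, 11.5, 8.87 and 9.51 TPM in WT, 6.75, 5.64, 7.09 and 5.70 TPM in Rag2-/-, and 8.17, 8.58, 9.63 and 13.7 TPM in NSG. Its Rag2-/- libraries lay below those of both other hosts, by -0.63 against WT (adjusted p 0.0501) and -0.58 against NSG (adjusted p 0.138). Dut was at 172, 175, 177 and 162 TPM in WT, 156, 121, 134 and 134 TPM in Rag2-/-, and 144, 144, 167 and 161 TPM in NSG, with a log2 fold change of -0.34 in Rag2-/- versus WT that passed the adjusted p (0.0385) and not the limit on the fold change. Compared with NSG, 9 of 46 genes were higher and 37 lower in Rag2-/- (median -0.06), and Rpa3, a subunit of the single-strand binding protein, followed Fen1 with -0.22. In NSG versus WT 26 of 46 were higher, led by Gins4 (0.24, adjusted p 0.422) and Dscc1 (0.22, adjusted p 0.696).

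Of the 50 other mitosis genes 37 were higher in Rag2-/- than in WT (median 0.11), led by Ckap2 and Dlgap5 (each 0.30, adjusted p 0.186 and 0.151), with 8 higher and 2 lower at an unadjusted p below 0.05, beside the same 12.3% and 8.66% of all genes. In NSG versus WT 36 of 50 were higher (median 0.05), led by Cenpk (0.28) and Sgo1 (0.26), with 0 genes at an unadjusted p below 0.05. Compared with NSG, 35 of 50 were higher in Rag2-/- (median 0.05), and the largest differences were those of the kinetochore genes Spc24 (-0.25, adjusted p 0.177) and Knl1 (0.20, adjusted p 0.554).

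Upstream of S phase, 22 of 24 genes for G1 cyclins, kinases, pocket proteins and other E2F factors were tested, and Ccnd1 and Ccnd2 were below the filter. Cdk4, the kinase of the D cyclins, was at 329, 377, 354 and 354 TPM in WT, 277, 247, 248 and 307 TPM in Rag2-/-, and 324, 341, 301 and 330 TPM in NSG. All Rag2-/- libraries were below all WT libraries, and the log2 fold change of -0.39 passed the adjusted p (0.0195) and stayed inside the limit on the fold change. Against NSG it was -0.27 (adjusted p 0.142). Cdc25a, the phosphatase that activates the cyclin E kinase, was at 45.7, 50.7, 47.5 and 46.3 TPM in WT, 41.0, 35.2, 38.6 and 41.7 TPM in Rag2-/-, and 48.3, 47.6, 42.6 and 46.7 TPM in NSG. Its Rag2-/- libraries lay below all others, with log2 fold changes of -0.28 against WT (adjusted p 0.0473) and -0.24 against NSG (adjusted p 0.152). Lin9, a subunit of the DREAM complex, was higher by 0.32 in Rag2-/- than in WT (adjusted p 0.105), and in NSG versus WT the largest differences were those of E2f5 (-0.34, adjusted p 0.7) and Lin37 (0.26, adjusted p 0.458).

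Among the 8 CDK inhibitors Cdkn1a, which encodes p21, was at 55.3, 46.4, 34.3 and 35.3 TPM in WT, 64.4, 50.4, 58.4 and 47.6 TPM in Rag2-/-, and 58.7, 55.3, 58.3 and 56.9 TPM in NSG. Its difference in NSG versus WT was 0.44 (adjusted p 0.422), with no overlap although the lowest NSG and the highest WT library were equal after rounding, and the WT libraries spread more widely than those of NSG. Cdkn2b (-0.45, adjusted p 0.417) and Cdkn2a (-0.39, adjusted p 0.150) had the largest differences in Rag2-/- versus WT, and Cdkn2b also had a large one in NSG versus WT (-0.38, adjusted p 0.725). Between Rag2-/- and NSG they were those of Cdkn2d (0.34, adjusted p 0.614) and Cdkn2a (-0.24, adjusted p 0.535). Of the 19 checkpoint and p53 pathway genes 7 were higher and 12 lower in Rag2-/- than in WT. Ccng1, the p53 target cyclin G1, was at 170 to 193 TPM in WT, 218 to 249 TPM in Rag2-/- and 182 to 279 TPM in NSG, higher by 0.37 in Rag2-/- than in WT (adjusted p 0.0796) and by 0.27 in NSG than in WT (adjusted p 0.507). Btg2, another p53 target, had log2 fold changes of -0.40 and -0.33 in the same comparisons (adjusted p 0.253 and 0.608), and in Rag2-/- versus NSG the largest differences were those of Gadd45a (-0.24, adjusted p 0.462) and Cdc25b (0.20, adjusted p 0.639).

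Several values have limits that come from the genome. Exons of 13 of the 43 genes overlap another gene, and for 7 the overlap is more than 10% of the exon bases in GENCODE M21. Besides Gins2, E2f8 and Ccne2, these are Kif20a (29.3%, Cdc23), Ube2c (22.8%, Tnnc2), Cdc25c (12.7%, Gm3550) and Ccna2 (12.5%, Exosc9). Processed copies of Ccnb1, Ccnb2, Pcna and Tyms are listed in the same file, at 4.87 TPM for Ccnb1-ps, 8.92 TPM for Ccnb2-ps, 5.80 TPM for Pcna-ps2, 0 for Pcna-ps1 and 0.148 TPM for Tyms-ps, and reads that fit both a gene and its copy could have been counted for either.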

How the data were processed

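The deposited TPM of 12 RNA-seq libraries of GFP+ MLL-AF9 leukemia cells, 4 for each host, were used. According to the study's methods, the authors aligned paired-end reads to mm10 with HISAT2 on Galaxy and calculated TPM from raw gene counts, and the deposited file gives 1 column of TPM per library. The counting tool, annotation, strand setting and gene lengths are not given in the sources used here. TPM hold no depth, so counting error could not be computed. Gene IDs were matched to symbols in GENCODE M21 (55141 of 55401), and 27734 genes are at 0 in all libraries.

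The 15026 genes that averaged 1 TPM or more were fitted on log2(TPM + 1) over all 12 libraries without covariates, using limma 3.58.1 under R 4.3.3 (linear model, contrasts, and moderated variances with an intensity trend), and adjusted by Benjamini-Hochberg in each comparison. Fold changes on this scale understate those of low genes. Genes were called at an adjusted p below 0.05 and a log2 fold change beyond 0.5, as in the study's methods. The script was tested on simulated data with planted changes, which checks the code and does not bear on the results above. The p-values measure the spread between these mice. Members and lists were chosen with earlier results of these data known, and scores and motif shares are descriptions without a test. Named were all 43 genes, by library for 12 chosen genes and the 2 largest fold changes per comparison and role, and from each other list the 2 largest per comparison, with genes past the adjusted p and Ccnb2 named after their values were seen. Alternatives were a pseudocount of 0.1, other filters, quantile and median-ratio scaling, eBayes without a trend, 8 libraries per comparison, a replicate block, no fold limit and leaving out each library. Python 3.11.15, numpy 2.4.6, pandas 2.3.3 and matplotlib 3.10.9 were used. Promoter sequences are from RefSeq (GRCm38.p6). In 27 of 34 genes bases downstream of the start were found in a GENCODE transcript on the given strand and in 0 on the other. Of the promoters printed above, only 3 were among those found. Promoters of 9 genes were not analysed here.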

Additional observations from a re-analysis of the deposited data

Results flagged for a closer look

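In groups of 4 libraries of 1 host, 5 of 138 groups had a library whose gap to the nearest other library exceeded Dixon's 95% critical share of the range, and chance gives about 6.9 such groups at 1 in 20. Rrm2 was highest in NSG replicate 4 (344 TPM, gap of 0.846 of the range). Cdt1 was lowest in the same library (153 TPM, 0.980), with the other 3 NSG libraries between 170 and 171 TPM. Gins2 was highest in WT replicate 2 (32.3 TPM, 0.840), Foxm1 was lowest in WT replicate 2 (47.9 TPM, 0.867), and Chek1 was lowest in WT replicate 1 (24.9 TPM, 0.929).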

How the results depend on the processing

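The count of called cell cycle genes stayed at 0 in every alternative except Rag2-/- versus WT with 8 libraries or without NSG replicate 3, where it was 1 (E2f2, adjusted p 0.0296 and 0.0364). The counts over all genes moved more. In Rag2-/- versus WT 221 genes became 114 with all genes above 0, 357 with 8 libraries and 420 with no fold limit. In NSG versus WT 0 became 2 with all genes above 0. In Rag2-/- versus NSG 32 became 14 with a pseudocount of 0.1, 7 with all genes above 0, 19 with quantile normalization, 11 with median-ratio scaling, 18 without a trend and 6 with 8 libraries. Leaving out 1 library gave 0 to 1 cell cycle genes and 48 (without WT replicate 2) to 327 (without NSG replicate 3) of all genes in Rag2-/- versus WT, with 121 without WT replicate 3, 140 without WT replicate 4, 51 without Rag2-/- replicate 3 and 53 without Rag2-/- replicate 2. It gave 0 to 2 of all genes in NSG versus WT, and 4 (without Rag2-/- replicate 3) to 90 (without Rag2-/- replicate 4) in Rag2-/- versus NSG, with 85 without NSG replicate 3, 26 without WT replicate 2 and 5 to 20 without any other single library. The cause was not tested. Over all alternatives, the genes with an interval within 0.5 stayed at 38 to 41, 40 to 41 and 41 to 42 of 43 in the 3 comparisons. Those intervals under alternatives were added after the data were seen.

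The replicate numbers did not pair the samples (correlation of same-number deviations -0.0906 to 0.0318 over 12 pairs, -0.12 to 0.128 for other pairs). With the replicate block 0 cell cycle genes were called in each comparison, and 165, 0 and 5 of all genes.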

Other observations

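Rag2-/- replicate 4 had the smallest E2f2 value of its host (72.2 TPM) and the smallest neutrophil marker mean (5.12), and the highest level of its host for 7 of 13 replication genes and 22 of 46 other replication genes, compared with 27.8% of all genes tested. NSG replicate 3 had the highest E2f2 value of its host (114 TPM), the lowest neutrophil marker mean (3.76) and the lowest level for 13 of 24 mitosis genes and 23 of 50 other mitosis genes, compared with 36.3% of all genes tested. Of its neutrophil markers, Lcn2, Cd177 and Il1r2 were nevertheless the highest of that host. In the 46 other replication genes E2F motifs were present in 13 of 37 with a promoter sequence (35.1%) and CHR letters in 7 of 37 (18.9%). In the 50 other mitosis genes the counts were 6 of 43 (14%) and 29 of 43 (67.4%).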
